A study of Mus musculus with 15 samples.

Results

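Gene expression was compared between the mouse embryonic stem (ES) cell line CL11 and mouse embryonic fibroblasts (MEF), both of B6D2F1 genetic background. The arrays were chosen by their titles, and 6 of the 15 arrays of the series entered the comparison, 3 for CL11 and 3 for MEF. The other arrays hold induced pluripotent stem (iPS) cell lines and were not compared here. They helped to set the common scale, the background level, the probe set read for each gene and the estimated spread between arrays. The MEF are, per the labels, the cells from which iPS cells were made. The CL11 cells were grown with leukaemia inhibitory factor (LIF) on a layer of mitomycin C-treated MEF, in medium with fetal serum or a replacement for it. Which of these CL11 had, and how the MEF samples were grown, is not in the labels. Cell type and culture conditions therefore cannot be told apart. CL11 is a single ES line, and neither the embryos behind the MEF nor any pooling of them is described. Each group's 3 samples are described as biological replicates, without their source, so p-values measure just the spread among them.

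ES cells come from the inner cell mass of the blastocyst and can form every tissue of the embryo. They keep this state through a small set of transcription factors, led by the products of Pou5f1, Sox2 and Nanog, which bind and activate each other's genes. They divide rapidly with a short first gap phase and grow as tight epithelial colonies. Fibroblasts are connective tissue cells that secrete a collagen matrix, pull on it through actin and myosin, and divide under the control of growth factors and cell cycle inhibitors.

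The values are Affymetrix MAS5 signals, a probe set's brightness on a linear scale. Each array was scaled to a common trimmed mean and taken as log2(signal + 16), so a level below is on this log2 scale. A difference is CL11 minus MEF, with the standard error (SE) of the fit. A gene is called where limma's adjusted p is under 0.05. Background was set at a log2 level of 11.06, the 95th percentile of 38 olfactory receptor genes, which neither cell type is known to use. Where the dimmer group lies below it, the fold is given as "at least", with the dimmer arrays raised to background, and levels of different probe sets are not set against each other. The same call rule gave 19552 of 45037 probe sets as changed (43.4%), of which 9970 were higher in CL11 (22.1%) and 9582 lower (21.3%). Read as 1 probe set a gene, 9641 of 18193 genes changed (53%), 5406 higher (29.7%) and 4235 lower (23.3%). Without scaling the arrays, 39.3% of the changed genes were higher, against 56.1% with it. The 3 CL11 arrays did not overlap the 3 MEF arrays for 11061 genes (60.8%). The median difference over all genes was 0.07.

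**Figure D1:**
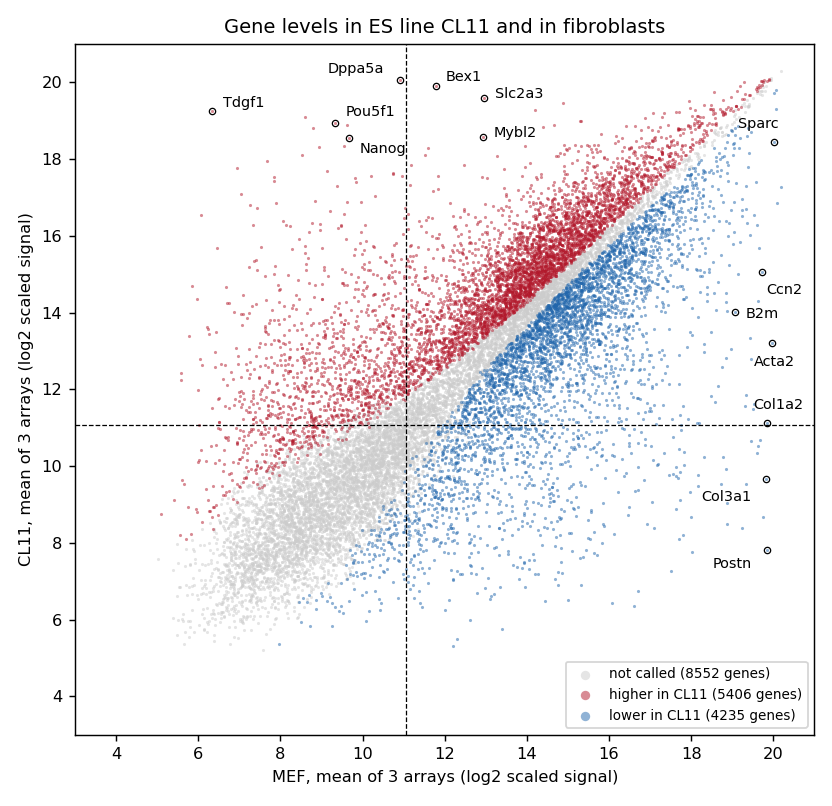
Mean level of each of 18193 genes in MEF (horizontal axis) and in CL11 (vertical axis), as log2 of the scaled signal, with dashed lines at the background level of 11.06. Genes called higher in CL11 are red (5406), genes called lower are blue (4235), and circles mark 14 genes that the text names.

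Arrays of a group resembled each other more than those of the other group. Pearson correlations over genes were 0.927 to 0.942 within a group and 0.788 to 0.793 between groups. Actin signal at the 3' end over that at the 5' end, a ratio that rises as RNA degrades, was 1.19 to 1.22 in CL11 and 1.14 to 1.17 in MEF. The trimmed mean before scaling was 12698.5 to 14016.5 in CL11 and 16660.7 to 20355.5 in MEF. About as many genes lay above background in CL11 (62.1%) as in MEF (61.8%), with 1323 above it in CL11 alone and 1277 in MEF alone.

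The labelled cell types were set beside marker lists. The lists were chosen with earlier results of these data known, so their counts are not an independent check of identity. All 26 ES cell markers lay above background in CL11 and 4 of them in MEF. All 24 measured fibroblast markers lay above background in MEF and 7 in CL11. Where a marker lay below background in CL11, its share of the MEF signal is an upper bound with those arrays raised to background. By measured share or upper bound, 11 of 24 had under 1% of their MEF signal on the CL11 arrays. Among the defining fibroblast genes, Postn, Col1a1, Col3a1, Pdgfrb, Prrx1 and Twist2 lay below background in CL11, while Col1a2 (0.237% of the MEF signal) and Thy1 (0.987%) lay above it. The measured markers with larger shares were Mfap5 with 14.5%, Sparc with 33.8%, Pdgfra with 53.2% and Fbln1 with 72.9%. Fbln1 was not called under median scaling (−0.23, limma adjusted p = 0.311). Tcf21 was below background in CL11 and near it in MEF. In a bulk sample, fewer cells of a type and less RNA per cell cannot be told apart, and the part of the feeder layer in what remained was not tested.

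**Figure D2:**
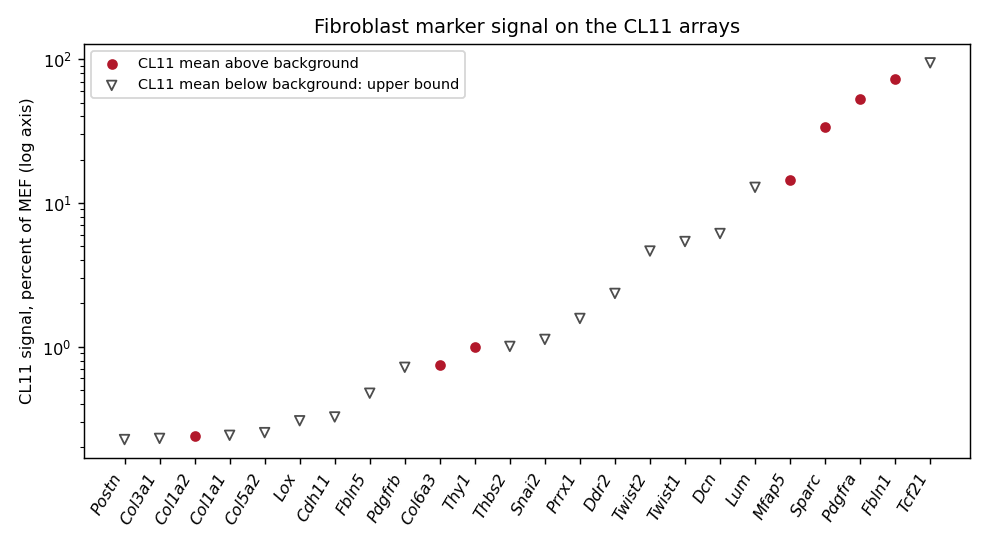
Signal of 24 fibroblast marker genes on the CL11 arrays as a percentage of their signal on the MEF arrays (logarithmic axis, means of 3 arrays). Filled points lie above background in CL11 (7 genes), and open triangles are upper bounds for the 17 genes below it, which run from 0.225% for Postn to 94.5% for Tcf21.

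The core pluripotency transcription factors were high on every CL11 array and below background in MEF. Pou5f1, which encodes OCT4, read 18.89, 18.99 and 18.91 on the CL11 arrays and 8.90, 10.24 and 8.80 on the MEF arrays. It was at least 234-fold higher in CL11 (difference 9.61 ± 0.23, limma adjusted p = 1.3e-16). Sox2, whose product pairs with OCT4 on DNA, read 18.46, 18.29 and 18.21 on the CL11 arrays and 9.28, 8.67 and 8.85 on the MEF arrays. Nanog, a homeodomain factor that sustains self-renewal, read 18.62, 18.47 and 18.53 on the CL11 arrays and 9.62, 9.28 and 10.11 on the MEF arrays. The groups were far apart for all 3 genes, with folds of at least 153-fold for Sox2 and at least 178-fold for Nanog. The ES-restricted coactivator gene Utf1 read 18.23, 18.32 and 18.35 on the CL11 arrays and 11.67, 11.08 and 12.00 on the MEF arrays, and it was 105-fold higher. Sall4, a zinc finger gene of the same network, was at least 119-fold higher. Nr0b1 was at least 82.8-fold higher, Esrrb at least 56.7-fold higher, Tfcp2l1 at least 37.3-fold higher and Zfp42, a widely used marker of undifferentiated cells, at least 37.3-fold higher. The median over all probe sets of Tfcp2l1 did not pass (difference 1.30, limma adjusted p = 0.233). Klf5 and Klf2 are factors that MEF also express. Klf5 rose from a mean of 13.95 to 18.34 (20.9-fold) and Klf2 from 14.16 to 16.84 (6.41-fold). Prdm14, which protects the undifferentiated state, had a mean of 13.83 ± 0.31 (SD, n = 3) in CL11 and was at least 6.81-fold higher.

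The 250 bases before and 50 bases after the Nanog start site (mouse build GRCm38.p6, chr6:122707239-122707538, + strand, from RefSeq) are shown because they hold the joint OCT4-SOX2 element. In capitals is the match to this composite element, which was searched as 14 letters with 1 left free and here lies on the opposite strand. The match begins 75 bases before the start site.
Nanog: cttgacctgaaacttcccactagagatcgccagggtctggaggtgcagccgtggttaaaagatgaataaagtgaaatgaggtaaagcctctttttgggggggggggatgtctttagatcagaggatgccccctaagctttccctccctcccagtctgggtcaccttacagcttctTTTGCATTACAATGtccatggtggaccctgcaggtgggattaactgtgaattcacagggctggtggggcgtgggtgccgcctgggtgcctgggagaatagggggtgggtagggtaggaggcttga
The same letters on either strand occurred in 1 of the 735 windows of genes at least 4-fold higher in CL11, in 0 of the 832 windows of genes at least 4-fold lower and in 1 of all 14452 windows (0.01%). Nanog was thus the single gene with this exact match, and other spellings of the element were not searched. The shorter octamer ATTTGCAT, a recognition sequence of the OCT factors, lay in 1.90% of the higher, 1.56% of the lower and 1.49% of all windows. One window a gene was read, and 14452 of the 18193 genes had one.

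The genes on either side of Nanog were followed outward. In RefSeq order they are Apobec1, Gdf3, Dppa3, Nanog, Slc2a3 and Foxj2, and the 3 nearest measured ones were higher in CL11. Gdf3, a TGF-beta family ligand of early embryos, was at least 56-fold higher, and Dppa3, a maternal factor that guards DNA methylation, was at least 16.8-fold higher. Slc2a3, the glucose transporter GLUT3, read 19.57, 19.65 and 19.55 on the CL11 arrays and 13.11, 12.85 and 12.90 on the MEF arrays and was 99.3-fold higher. Next outward, Apobec1 differed by 0.85 ± 0.23, or by 0.43 without scaling (adjusted p = 0.207), and Foxj2 by −0.37 ± 0.17 (adjusted p = 0.09939, not called). Farther out, Phc1, a Polycomb gene 7 genes before Nanog, was 21.8-fold higher, and Mfap5, a microfibril gene between them, was 6.95-fold lower. C3ar1, the receptor for a complement fragment, lay below background in CL11 and was at least 1.68-fold lower.

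Of the remaining large rises, Dppa5a had the largest bounded fold. Dppa5a encodes an RNA-binding protein of early embryos and read 20.02, 20.15 and 19.98 on the CL11 arrays and 10.47, 10.84 and 11.39 on the MEF arrays. It was at least 472-fold higher. Dppa5a and Nanog have pseudogenes of close sequence, which a probe set may not tell apart. Tdgf1, the Nodal co-receptor Cripto, was at least 292-fold higher, and its MEF arrays read 6.49, 5.92 and 6.59. L1td1, a domesticated retroelement gene, was at least 217-fold higher, and Dppa2, a partner of Dppa4 at early embryonic genes, at least 132-fold higher. Bex1 was measured above background in both groups. It read 20.01, 19.90 and 19.78 on the CL11 arrays and 11.80, 11.79 and 11.79 on the MEF arrays, a 275-fold rise. Gsta4, a glutathione transferase that removes lipid peroxidation products, was at least 228-fold higher. Upp1, uridine phosphorylase, which breaks down uridine, was at least 155-fold higher. Lin28a, which blocks maturation of let-7 microRNAs, was at least 104-fold higher.

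**Figure D3:**
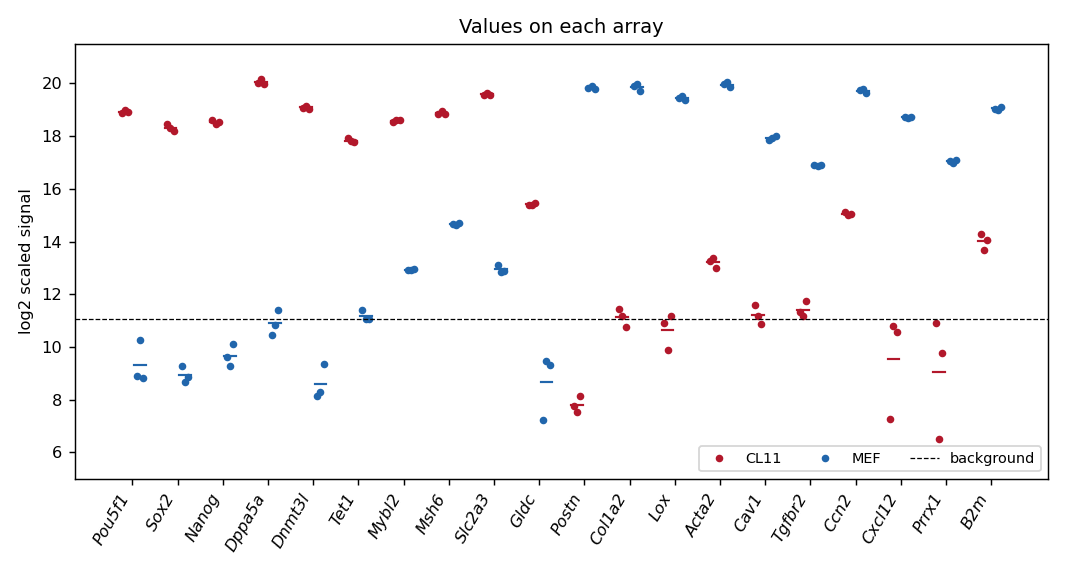
Levels (log2 scaled signal) of 20 genes on each of the 3 CL11 arrays (red) and 3 MEF arrays (blue), with group means as short bars and the background level of 11.06 as a dashed line. The arrays of the groups do not overlap for any gene shown, and Pou5f1, Sox2 and Nanog lie below the line on the MEF arrays.

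Some developmental transcription factors rose with the pluripotency set, but more fell. Of 58 measured body-pattern factors, 12 were higher (20.7%), 28 lower (48.3%) and 18 not called, against 29.7% higher and 23.3% lower over all genes. Their median difference was −1.16, against 0.07 for all genes. Gbx2, a homeobox gene of the early epiblast, read 16.01, 16.21 and 16.10 on the CL11 arrays and 11.83, 11.49 and 11.34 on the MEF arrays and was 23.4-fold higher. Tcf15, a factor of epiblast cells ready to differentiate, was 32.2-fold higher. Foxd3, which ES cells need for self-renewal, was at least 12.9-fold higher, Zic5 at least 14.5-fold higher and Tbx3 8.71-fold higher. Otx2, a homeobox gene of the epiblast and later the forebrain, read 13.57, 13.17 and 13.43 on the CL11 arrays and 5.54, 5.73 and 6.02 on the MEF arrays and was at least 5-fold higher. Eomes, known from trophoblast and mesoderm, was at least 4.67-fold higher. The rise in Zic2 (at least 1.39-fold) ended just above background.

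The 28 lower factors included genes that pattern limb and facial mesenchyme. Prrx1, a homeobox gene of such cells, read 10.89, 6.49 and 9.78 on the CL11 arrays and 17.04, 16.99 and 17.10 on the MEF arrays and was at least 63.2-fold lower. Foxc2 was at least 24.8-fold lower and Foxc1 at least 12.4-fold lower, both forkhead genes of mesoderm. Meis2, Shox2 and Tbx15, which act in limb and skeletal growth, were at least 19-fold lower, at least 18.2-fold lower and at least 15.5-fold lower. Emx2 and Zic1, better known from the developing brain, were at least 13.4-fold lower and at least 11.8-fold lower. Among the other mesenchymal factors, Snai2 was at least 88.5-fold lower, Twist2 at least 21.4-fold lower and Twist1 at least 18.2-fold lower. The T-box gene Tbx4 (difference −0.91 ± 0.52, adjusted p = 0.1813) and Hand2 (−0.92 ± 0.54, adjusted p = 0.1972) were not called. Dlx1, Dlx2, Dlx3, Dlx5, Alx1 and Alx4 lay below background in both cell types.

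Markers of primitive endoderm, the other lineage of the inner cell mass, were more often higher than lower. Of 18, 9 were higher and 3 lower (7 and 5 without scaling), and 14 lay above background in CL11 against 8 in MEF. Their summed signal was 667266 to 680743 in CL11 and 1234518 to 1310673 in MEF, where Col4a1, Col4a2 and Lamb1 of the list were brighter. The laminin gene Lama1 went the other way and was 11.7-fold higher in CL11. Sox7 read 14.37, 14.47 and 14.36 on the CL11 arrays and 9.07, 7.75 and 9.67 on the MEF arrays and was at least 10.1-fold higher. Gata4 was at least 7.12-fold higher, Sox17 at least 3.86-fold higher and Gata6 1.92-fold higher, all factors of that lineage. Gata6 did not pass without scaling (0.53, limma adjusted p = 0.0821) or as the median of its probe sets (0.81, adjusted p = 0.0863). The uptake receptor genes Lrp2 and Cubn were at least 20-fold higher and at least 16.6-fold higher. Afp, Ttr and Apoa1, which mark the mature visceral layer, lay below background in both groups. The part of such cells in the levels of developmental factors was not tested.

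Enzymes that write and erase DNA methylation were mostly higher in CL11. Of 11 measured genes, 8 rose and 3 fell (median 2.79), with 5 higher when probe sets shared between transcripts were left out. Here and below, that setting also drops genes without another probe set, such as Dnmt3l, so a smaller count need not mean a lost call. Dnmt3l, the cofactor of the de novo methyltransferases, read 19.08, 19.15 and 19.04 on the CL11 arrays and 8.15, 8.30 and 9.35 on the MEF arrays and was at least 261-fold higher. The de novo enzymes themselves, Dnmt3b and Dnmt3a, were at least 86-fold higher and 19.7-fold higher. Tet1, which oxidises methylcytosine, read 17.93, 17.81 and 17.76 on the CL11 arrays and 11.41, 11.07 and 11.06 on the MEF arrays and was 100.5-fold higher, while Tet2 was 6.89-fold higher. Tet3 was called lower but lay below background in both groups, so no fold is given. The maintenance pair, Dnmt1 and its partner Uhrf1, rose 3.92-fold and 9.4-fold. In the Mbd gene family, Mbd3 was 2-fold higher, while Mbd2 was 3.37-fold lower and Mbd1 1.485-fold lower.

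Genes that silence retroelements and process small RNAs followed. Of 32 measured, 20 were higher and 5 lower (median 1.12). Tex19.1, which restrains retrotransposons in the germ line and placenta, was at least 74.9-fold higher. The piRNA pathway genes Mael, Piwil2 and Tdrd12 were at least 10.5-fold higher, at least 7.98-fold higher and at least 7.45-fold higher, all from below background in MEF. Trim28, the KAP1 corepressor, read 19.11, 19.30 and 19.17 on the CL11 arrays and 17.11, 17.18 and 16.89 on the MEF arrays and was 4.39-fold higher. Its methyltransferase partner Setdb1 was 2.88-fold higher. Of the microRNA enzymes, Drosha was 3.3-fold higher, Dicer1 2.07-fold higher, and the exporter Xpo5 2.46-fold higher. Argonaute genes did not move together. Ago1 differed by 0.56 ± 0.11, or by 0.14 without scaling (adjusted p = 0.361), and Ago3 by −1.05 ± 0.25, while Ago4 lay below background in both groups. Tdrd7, a Tudor gene of germ cell and lens granules, was at least 6.62-fold lower, and the median of its probe sets did not pass (−0.75, adjusted p = 0.406).

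DNA repair genes were higher in CL11 in all 3 branches examined. Of 60 measured genes, 50 rose, 2 fell and 8 were not called, with a median of 1.57 (42 rose and 5 fell without scaling, 53 and 1 under median scaling). In mismatch and excision repair, 17 of 22 rose and 2 fell. Msh6, whose product recognises mismatched bases, read 18.84, 18.97 and 18.85 on the CL11 arrays and 14.65, 14.64 and 14.70 on the MEF arrays and was 18.7-fold higher. Ung, which removes uracil from DNA, was 11.5-fold higher, Lig1, which seals nicks after replication, 9.08-fold higher, and Exo1 7.22-fold higher. The 2 that fell were the nucleotide excision genes Xpa (−0.88 ± 0.18) and Ercc1 (−0.36 ± 0.09), the latter not called under median scaling (−0.13, adjusted p = 0.481) or as the median of its probe sets (−0.38, adjusted p = 0.135). In homologous recombination and the Fanconi pathway, 18 of 20 rose and none fell. Fanci was 10.1-fold higher, Brca1 9.37-fold higher, Fancd2 7.49-fold higher and Brca2 6.6-fold higher, and Fancm was not called (0.68 ± 0.31, adjusted p = 0.0949). In end joining and checkpoint control, 15 of 18 rose and none fell. Xrcc5, which encodes the Ku80 end-binding protein, was 9.08-fold higher, the checkpoint kinase gene Chek1 4.21-fold higher, and the damage sensor kinase Atm 2.86-fold higher.

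Telomere and nucleotide genes were also mostly higher. Of 16 measured telomere genes, 15 rose and none fell (median 1.56), while 1 was called lower without scaling and 2 as the median of their probe sets. Rif1, a regulator of telomeres and replication timing, was 8.58-fold higher, Dkc1, which stabilises telomerase RNA, 6.87-fold higher, and the shelterin gene Terf1 4.76-fold higher. Tert, the telomerase catalytic subunit, read 12.86, 12.17 and 12.02 on the CL11 arrays and 9.81, 11.02 and 10.99 on the MEF arrays, and was at least 2.44-fold higher. Of 26 nucleotide synthesis genes, 23 rose and none fell (median 1.5), or 19 and 1 without scaling. In the purine pathway, Gart, which encodes several enzyme activities of the pathway, was 7.49-fold higher, Pfas 5.51-fold higher and Prps1 5.29-fold higher. For pyrimidines and deoxynucleotides, Dtymk, thymidylate kinase, was 6.81-fold higher, Cad, which starts pyrimidine synthesis, 4.18-fold higher, and Rrm2, the regulated subunit of ribonucleotide reductase, 3.73-fold higher.

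The start region of Msh6 (GRCm38.p6, chr17:87974800-87975099, + strand, from RefSeq) is shown because it carries a recognition sequence of the E2F factors, which switch on replication and repair genes. The match to TTTCCCGC is in capitals and begins 15 bases after the start site.
Msh6: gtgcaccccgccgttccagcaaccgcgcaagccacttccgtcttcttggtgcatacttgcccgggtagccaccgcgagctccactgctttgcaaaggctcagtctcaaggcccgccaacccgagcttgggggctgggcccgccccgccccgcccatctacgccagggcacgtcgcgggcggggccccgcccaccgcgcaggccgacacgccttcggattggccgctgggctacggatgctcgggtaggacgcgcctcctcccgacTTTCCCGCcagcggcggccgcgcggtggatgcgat
On either strand, TTTCCCGC lay in 30 of 735 windows of genes at least 4-fold higher in CL11 (4.08%), in 12 of 832 windows of genes at least 4-fold lower (1.44%) and in 245 of all 14452 (1.70%). A second form, TTTGGCGC, lay in 2.59%, 0.12% and 0.85% of the same windows. Of 51 DNA repair genes with a window, 7 held at least 1 of these forms. These were Brca2, Bard1, Msh3, Msh6, Xrcc6, Chek2 and Mdc1, and all 7 were called higher, although the median over the probe sets of Xrcc6 was not (0.36, adjusted p = 0.53). With or without a match, 50 of the 60 measured repair genes were called higher (83.3%), so the 7 do not stand out from their list. The windows of the higher genes had a median GC content of 60%, against 62.3% for lower and 58.7% for all genes. These shares describe letters in a short window, carry no test, and the motifs were chosen with the expression values known.

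The cell cycle genes separated by role. Of 39 measured, 23 were higher and 9 lower (median 0.76). Among cyclins and kinases 13 of 17 rose and 3 fell. Ccne1, the cyclin that drives entry into DNA synthesis, read 17.47, 17.56 and 17.57 on the CL11 arrays and 14.18, 14.46 and 14.05 on the MEF arrays and was 9.87-fold higher. Ccnf was 11.8-fold higher, Ccnb2 4.64-fold higher and Ccna2 3.97-fold higher. Against them, Ccnd2, a cyclin of the first gap phase, read 14.11, 13.95 and 14.06 on the CL11 arrays and 18.90, 18.91 and 18.81 on the MEF arrays and was 28.6-fold lower, and its kinase Cdk6 was 5.77-fold lower. Their relatives Ccnd3, Cdk4 and Ccnd1 were 2.605-fold, 1.63-fold and 1.36-fold higher. Mybl2, a transcription factor of dividing cells, read 18.53, 18.63 and 18.60 on the CL11 arrays and 12.93, 12.92 and 12.94 on the MEF arrays and was 50.3-fold higher. E2f8 and E2f4 were 5.1-fold higher and 4.59-fold higher. Among inhibitors and pocket proteins, 6 of 10 fell and 1 rose. Cdkn2b, which encodes the p15 inhibitor of CDK4 and CDK6, was 32.9-fold lower, Cdkn1a, which encodes p21, 7.93-fold lower, Cdkn2c at least 6.7-fold lower and Cdkn2a at least 4.92-fold lower. Cdkn1c, an imprinted inhibitor gene, was the member that rose (2.89-fold). Rbl2, a relative of the retinoblastoma gene, was 3.41-fold lower.

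Nutrient uptake and one-carbon metabolism differed in specific members. Of 46 transporters, 21 rose and 9 fell (median 0.41), which became 17 and 16 without scaling and 24 and 5 under median scaling. Besides Slc2a3, the glucose transporter Slc2a1 was 3.39-fold higher and the lactate transporter Slc16a1 5.64-fold higher. The nucleoside transporter Slc29a1 was 9.35-fold higher, the transferrin receptor Tfrc 7.45-fold higher, and the efflux pumps Abcc4 and Abcb1b 12.8-fold higher and 8.5-fold higher. Of 22 amino acid carriers, 7 were higher and 7 lower (31.8% each), not far from the shares over all genes (29.7% and 23.3%). Slc7a7 was 8.26-fold higher, Slc7a3 2.99-fold higher, and Slc6a9, a glycine transporter, 3.98-fold lower. Of 20 one-carbon genes, 11 rose and 5 fell, which became 6 and 7 without scaling the arrays and 7 and 3 without shared probe sets. Gldc, which cleaves glycine to feed the folate cycle, read 15.37, 15.40 and 15.47 on the CL11 arrays and 7.24, 9.46 and 9.33 on the MEF arrays and was at least 20.4-fold higher. The cytosolic folate enzymes Shmt1 and Mthfd1 were 15.1-fold higher and 9.26-fold higher. Aldh1l2, the mitochondrial enzyme that burns formyl-folate, moved the other way and was 66.3-fold lower.

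Redox genes were evenly divided, with 16 higher and 16 lower of 40, and 15 and 21 without scaling. The glutathione synthesis genes Gclm and Gclc were 4.07-fold higher and 3.23-fold higher, and the reductase Gsr 3.9-fold higher. The metallothioneins Mt2 and Mt1, which bind zinc and copper, were 7.25-fold higher and 5.35-fold higher. Lower were Gpx8, an endoplasmic reticulum peroxidase, 32.6-fold lower, the oxidase gene Cyp1b1, 62.4-fold lower, and Sod3, the extracellular superoxide dismutase, at least 5.55-fold lower. Of 34 lipid handling genes 9 rose (26.5%) and 17 fell (50%), against 29.7% and 23.3% over all genes. Their median was −0.27, and the counts became 5 and 20 without scaling and 11 and 13 under median scaling. Ptgs2, which makes prostaglandins, read 9.44, 10.08 and 10.38 on the CL11 arrays and 17.54, 17.76 and 17.61 on the MEF arrays and was at least 95.2-fold lower. Pla2g4a, which releases its substrate, was at least 64-fold lower. The fatty acid binding proteins moved in opposite directions, Fabp3 22.3-fold higher and Fabp5 10.1-fold lower.

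Splicing factors of general use were higher, by small amounts. Of 22, 19 rose and none fell (median 0.78), led by Hnrnpl (3.82-fold) and U2af1 (3.39-fold). Over all 41 measured splicing genes, 26 rose and 7 fell, which became 18 and 10 without scaling and 28 and 6 under median scaling. Those linked to differentiation were even, with 7 higher and 7 lower of 19 (36.8% each, against 29.7% and 23.3% over all genes). Esrp1, the epithelial splicing regulator, read 14.26, 14.08 and 14.44 on the CL11 arrays and 6.23, 6.34 and 7.48 on the MEF arrays and was at least 9.17-fold higher, and Rbm47 was at least 6.99-fold higher. Celf2, Mbnl1 and Mbnl2, which promote the splice forms of differentiated cells, were 10.2-fold lower, 6.32-fold lower and 4.11-fold lower. Of the probe sets above background, all 3 of Celf2, the 1 of Mbnl1 and 4 of 5 of Mbnl2 lay on the lower side. The size of the difference depended on the probe sets used, and the medians below include those below background. The median over probe sets was −0.27 for Celf2 (limma adjusted p = 0.681) and −0.90 for Mbnl1 (adjusted p = 0.167), and the brightest Celf2 probe set not shared between transcripts differed by −0.11 (adjusted p = 0.909).

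The nuclear lamina and intermediate filaments changed in makeup. Of 28 genes, 15 were higher and 12 lower, which became 11 and 12 without scaling. Lmna, the lamin of differentiated and stiff cells, was 5.07-fold lower, while Lmnb1 and Lmnb2 were 3.43-fold higher and 5.34-fold higher. The brightest Lmna probe set not shared between transcripts differed by −0.02 (adjusted p = 0.984). Lbr, which tethers chromatin to the lamina, was 4.48-fold higher. Vim, the filament of mesenchymal cells, read 16.69, 16.92 and 16.94 on the CL11 arrays and 20.11, 20.22 and 19.95 on the MEF arrays and was 9.47-fold lower. The epithelial keratins Krt8 and Krt18 were 19.3-fold higher and 7.16-fold higher. Nefl, a neurofilament gene, was at least 17.3-fold higher, and Nes, known from neural progenitors, at least 21.2-fold lower.

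**Figure D4:**
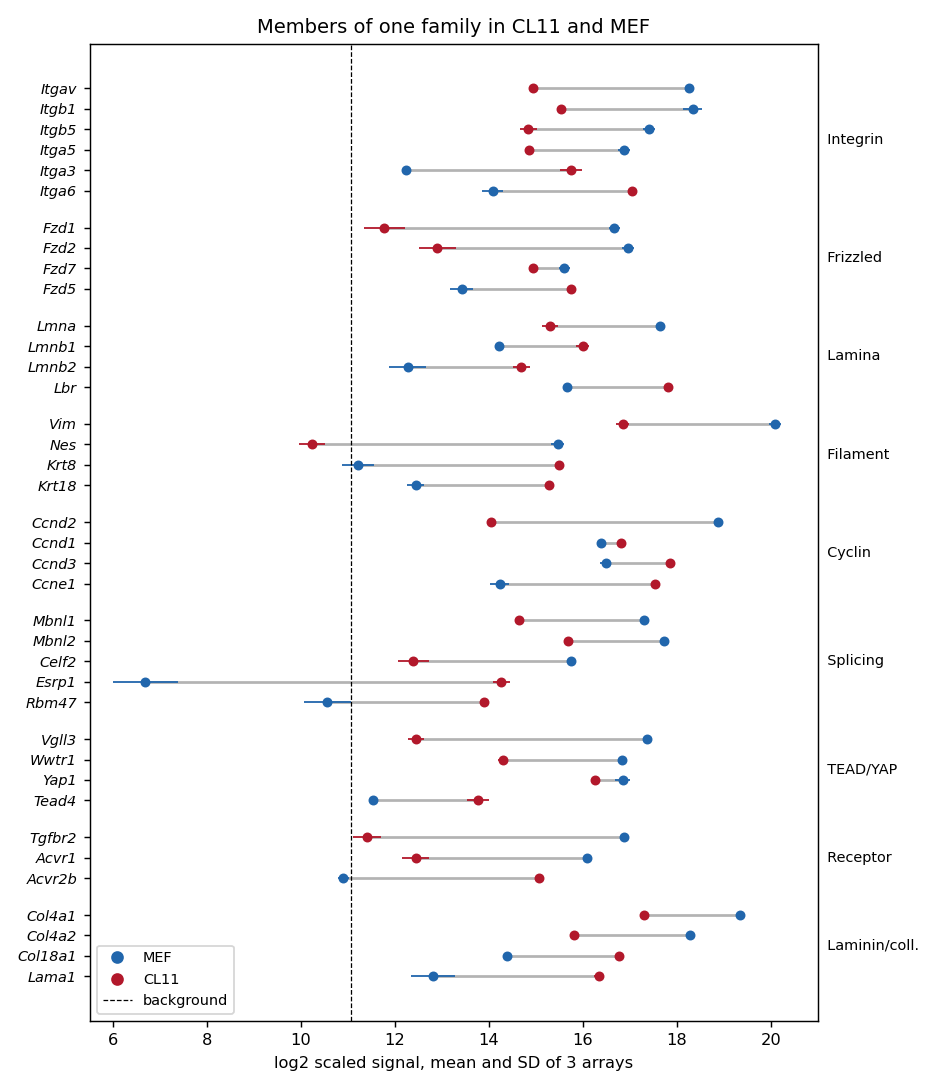
Levels (log2 scaled signal, mean and SD of 3 arrays) of selected genes of the same family or function in MEF (blue) and CL11 (red), with background as a dashed line. Within each group shown, some members are higher in MEF and others in CL11, such as Itgav against Itga6 and Lmna against Lmnb1.

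On the fibroblast side, many of the genes bright in MEF and at or below background in CL11 were matrix genes. Postn, which encodes a collagen-binding protein of wounds and ligaments, read 7.75, 7.53 and 8.15 on the CL11 arrays and 19.83, 19.92 and 19.78 on the MEF arrays. It was at least 439.9-fold lower in CL11 (difference −12.03 ± 0.69, limma adjusted p = 2.9e-11). Col1a2, a chain of type I collagen, read 11.45, 11.17 and 10.74 on the CL11 arrays and 19.90, 19.96 and 19.70 on the MEF arrays. Its CL11 mean stayed just above background, with 1 array below it, and it was 427-fold lower. Its partner chain Col1a1 was at least 410.0-fold lower, Col3a1 at least 432-fold lower, and Col5a2 at least 394-fold lower. Bgn, a small proteoglycan, was at least 378-fold lower, Fbln2 259-fold lower, Tnc, the matrix glycoprotein tenascin C, at least 288-fold lower, and the secreted protease Prss23 at least 371-fold lower. Cdh11, the cadherin of mesenchymal cells, read 9.40, 9.70 and 9.49 on the CL11 arrays and 19.28, 19.36 and 19.34 on the MEF arrays and was at least 306-fold lower. Ptn and Ccn4, both secreted signalling proteins, were at least 226-fold lower and at least 222-fold lower. Their CL11 arrays spread widely below background, from 7.22 to 10.58 for Ptn and from 7.27 to 10.18 for Ccn4.

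Of 25 collagen chains, 20 fell, 1 rose and 4 were not called (median −4.82). Col6a3, Col5a1 and Col11a1 were 134-fold lower, 95.2-fold lower and at least 108-fold lower. The basement membrane chains Col4a1 and Col4a2 fell less and remained bright in CL11, at 17.30 and 15.81, 4.13-fold lower and 5.5-fold lower. Col18a1, another basement membrane collagen, read 16.76, 16.72 and 16.84 on the CL11 arrays and 14.38, 14.37 and 14.44 on the MEF arrays and was the chain that rose, 5.21-fold higher. Col4a5 was at least 25-fold lower, and Col9a1, Col10a1 and Col23a1 lay below background in both cell types.

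The machinery that modifies and exports collagen fell with its substrate. Of 28 measured genes, 27 fell and 1 rose (median −2.63), with none higher without scaling. Lox, which cross-links collagen and elastin, read 10.90, 9.89 and 11.18 on the CL11 arrays and 19.43, 19.53 and 19.39 on the MEF arrays and was at least 326-fold lower. Loxl1 was 65.8-fold lower, Loxl3 44.5-fold lower, and the procollagen protease Bmp1 34-fold lower. All 12 prolyl and lysyl hydroxylase genes fell, from 1.85-fold for P4hb, which also serves other proteins as a disulphide isomerase, to 13.4-fold for P3h3. P4ha3 was at least 11.9-fold lower. The collagen chaperone Serpinh1 read 16.62, 16.55 and 16.43 on the CL11 arrays and 19.58, 19.67 and 19.35 on the MEF arrays and was 7.99-fold lower. Creb3l1, a transcription factor that induces the export machinery, was 15.3-fold lower, and the coat proteins Sec24d and Sec23a 10.3-fold lower and 4.87-fold lower. Pcolce2 was the member that rose (1.55-fold), and it was not called without scaling (0.21, adjusted p = 0.405).

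Contractile genes fell as a block. Of 36 actomyosin genes, 33 fell, none rose and 3 were not called (median −2.50), with 1 higher under median scaling or quantile normalization. Acta2, smooth muscle actin, read 13.27, 13.38 and 12.98 on the CL11 arrays and 19.97, 20.06 and 19.86 on the MEF arrays and was 108-fold lower. Actg2 was at least 219.7-fold lower, Cnn1, calponin, at least 120.1-fold lower, and Tagln, transgelin, 67.9-fold lower. Myl9, the regulatory light chain of contractile myosin, read 12.92, 12.75 and 12.75 on the CL11 arrays and 19.49, 19.45 and 19.39 on the MEF arrays and was 99.7-fold lower. The kinase that activates it, Mylk, was at least 34.6-fold lower. Of the tropomyosin genes, Tpm3 was not called, and Tpm2 and Tpm1 were 17.6-fold lower and 10.6-fold lower. The nonmuscle myosin heavy chains Myh9 and Myh10 fell less, 4.49-fold and 5.11-fold. Of the regulators, Rhoj was at least 22.5-fold lower, Rhob 8.62-fold lower and Rhoa 1.85-fold lower. Mrtfa and Mrtfb, the actin-sensing coactivators, were 2.04-fold lower and 1.45-fold lower, while Srf, their DNA-binding partner, was not called (0.32 ± 0.15, adjusted p = 0.1034). Mrtfb was not called under median scaling (−0.31, limma adjusted p = 0.13) or as the median of its probe sets (−0.98, adjusted p = 0.179), and the median over the probe sets of Srf was lower (−0.44, adjusted p = 0.00981).

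The start region of Myl9 (GRCm38.p6, chr2:156775214-156775513, + strand, from RefSeq) is shown because it holds a CArG box, the recognition sequence of SRF. The match is in capitals and begins 161 bases before the start site.
Myl9: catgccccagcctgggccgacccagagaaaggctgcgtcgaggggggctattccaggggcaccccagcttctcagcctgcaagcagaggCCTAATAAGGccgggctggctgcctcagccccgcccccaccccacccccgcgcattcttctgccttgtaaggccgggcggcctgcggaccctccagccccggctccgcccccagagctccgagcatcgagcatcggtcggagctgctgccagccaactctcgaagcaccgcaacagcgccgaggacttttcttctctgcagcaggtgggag
A CArG box on either strand lay in 22 of 832 windows of genes at least 4-fold lower in CL11 (2.64%), in 8 of 735 windows of higher genes (1.09%) and in 197 of all 14452 windows (1.36%). Of 31 actomyosin genes with a window, 6 held it, namely Myl9, Cnn2, Lima1, Srf, Rhoj and Rnd3. All of these but Srf were called lower, as were 33 of all 36 measured actomyosin genes (91.7%), so they do not stand out from their list. For comparison, the TEAD sequence GGAATG lay in 13.5% of the lower, 11.7% of the higher and 13.1% of all windows, and the AP-1 sequence TGANTCA in 6.49%, 4.63% and 6.33%. TATAAA lay in 11.1%, 8.16% and 9.87%.

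Adhesion to matrix changed in the same direction, with exceptions among the integrins. Of 32 integrin and focal adhesion genes, 23 fell and 5 rose (median −2.58), or 26 and 3 without scaling. Itgav, Itgb1 and Itgb5, subunits of receptors for fibronectin and vitronectin, were 9.9-fold lower, 6.95-fold lower and 5.94-fold lower. Itga6, a laminin receptor subunit, read 17.04, 17.03 and 17.07 on the CL11 arrays and 14.34, 13.96 and 13.95 on the MEF arrays and was 7.79-fold higher. Itga3, another such subunit, read 15.78, 15.97 and 15.51 on the CL11 arrays and 12.24, 12.16 and 12.31 on the MEF arrays and was 11.5-fold higher. The adaptor Tgfb1i1 was at least 102-fold lower, Parva 18.7-fold lower, Zyx, zyxin, 9.58-fold lower and Vcl, vinculin, 7.4-fold lower. Of 9 genes of caveolae, pits of the cell membrane, 6 fell and none rose. Cav1 read 11.60, 11.17 and 10.88 on the CL11 arrays and 17.86, 17.91 and 18.01 on the MEF arrays and was 105-fold lower, and Cavin2 and Cav2 were at least 35.5-fold lower and at least 24.8-fold lower.

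TGF-beta is a secreted factor that drives fibroblasts to make matrix. Of 35 genes of its pathway, 26 fell and 5 rose (median −2.07), or 27 and 3 without scaling. Among ligands and activators, Tgfb3 was at least 87.6-fold lower, Tgfb2 at least 23.6-fold lower and Tgfb1 5.61-fold lower. Thbs1, thrombospondin, which activates latent TGF-beta, read 11.77, 11.61 and 11.45 on the CL11 arrays and 19.51, 19.68 and 19.42 on the MEF arrays and was 244-fold lower. Of the Ltbp matrix genes, Ltbp2 was at least 42.1-fold lower, and Ltbp1 and Ltbp3 were each 16.3-fold lower. Ltbp4 was 3.28-fold higher. Among receptors, Tgfbr2, which binds the ligand first, read 11.32, 11.16 and 11.73 on the CL11 arrays and 16.89, 16.87 and 16.89 on the MEF arrays and was 44.8-fold lower. Acvr1 was 12.5-fold lower and Tgfbr1 2.34-fold lower. Acvr2b, a receptor for Nodal and activin, read 15.12, 15.05 and 15.00 on the CL11 arrays and 10.77, 11.00 and 10.92 on the MEF arrays and was at least 15.9-fold higher. Of 12 SMAD and antagonist genes 8 fell, 1 rose and 3 were not called. Smad3 was 2.5-fold lower and Smad4 1.58-fold lower, both signal carriers, and Smad7, an inhibitor of the pathway, was the member that rose (2.1-fold), though not as the median of its probe sets (0.26, adjusted p = 0.198). All 4 measured targets fell, among them Ccn2, connective tissue growth factor, which read 15.10, 15.01 and 15.06 on the CL11 arrays and 19.75, 19.81 and 19.63 on the MEF arrays and was 25.5-fold lower.

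The Hippo pathway restrains the coactivators YAP and TAZ, which act through TEAD factors. Of 25 genes, 17 fell (68%) and 7 rose (28%), against 23.3% and 29.7% over all genes (median −1.31). Wwtr1, which encodes TAZ, was 5.75-fold lower, and Yap1 1.49-fold lower. Vgll3, a TEAD cofactor, was 30.2-fold lower. Tead4 was 4.7-fold higher, in contrast to Tead3, 3.31-fold lower, and Tead1, 1.75-fold lower. The kinases Lats1 and Lats2 were 4.5-fold lower and 3.89-fold lower. The targets Ankrd1, Axl and Ccn1 were at least 49.8-fold lower, 75.5-fold lower and 14.5-fold lower, while Ajuba, listed with them, was 2.64-fold higher.

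Growth factor genes fell more often than they rose. Of 55 ligands, receptors and binding proteins, 34 fell and 10 rose (median −1.46). Pdgfrb, the platelet-derived growth factor receptor of mesenchyme, was at least 138-fold lower, and its relative Pdgfra was not called (−0.87 ± 0.47, adjusted p = 0.1491). In the insulin and IGF family 11 of 13 fell. Igfbp7 read 11.52, 12.19 and 11.81 on the CL11 arrays and 19.43, 19.37 and 19.20 on the MEF arrays and was 180.1-fold lower, while Igf2, the imprinted fetal growth factor, was 24.3-fold lower. Igf1r was 7.22-fold lower. Igfbp2 was the member that rose (5.65-fold). Of 13 FGF genes 5 rose (38.5%) and 3 fell (23.1%), near the shares over all genes (29.7% and 23.3%). Fgf4, the FGF that ES cells make themselves, read 16.78, 16.84 and 16.95 on the CL11 arrays and 7.90, 7.84 and 7.91 on the MEF arrays and was at least 55.5-fold higher. Fgf17 was at least 6.04-fold higher, and the fibroblast ligand Fgf7 at least 4.59-fold lower. Of 16 other receptor kinase genes 12 fell and 1 rose, and of 7 EGF and neuregulin genes 5 fell and 1 rose. Met, the receptor of hepatocyte growth factor, was at least 4.77-fold lower. The members that rose were Kit, at least 9.19-fold higher, and Erbb3, 14.9-fold higher.

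Wnt genes divided by member. Of 45 measured, 14 rose (31.1%) and 19 fell (42.2%), against 29.7% and 23.3% over all genes. Their median was −0.29, and the counts became 9 and 21 without scaling and 16 and 17 under median scaling. Fzd1 and Fzd2 were 29.8-fold lower and 16.7-fold lower, and Fzd5 5.01-fold higher. Wls, which carries Wnt proteins to the cell surface, read 11.46, 10.90 and 10.84 on the CL11 arrays and 17.79, 17.71 and 17.71 on the MEF arrays and was 102-fold lower, while Porcn, which attaches their lipid, was 10.9-fold higher. Wnt5a was at least 15.8-fold lower and Wnt7b 3.58-fold higher. Of the antagonists, Dkk3 and Dkk2 were at least 16.9-fold lower and at least 15.3-fold lower, Notum at least 4.9-fold higher and Dkk1 at least 2.84-fold higher. Axin2, a common feedback target, was at least 4.86-fold higher, and Lef1 4.39-fold higher. Of 28 Hedgehog and Notch genes, 10 rose and 12 fell, or 10 and 10 under median scaling. Gli1 and Ptch1, both targets of Hedgehog signalling, were at least 6.35-fold higher and 4.27-fold higher, and Gas1, a co-receptor, 13-fold lower. Jag1 was 12.8-fold lower and Notch4 at least 7.08-fold higher, the latter not called as the median of its probe sets (0.59, adjusted p = 0.379).

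Guidance cues fell in 24 of 40 cases and rose in 7 (median −1.25). Nrp1, a receptor shared by semaphorins and VEGF, read 9.65, 9.14 and 10.29 on the CL11 arrays and 17.60, 17.54 and 17.92 on the MEF arrays and was at least 98.4-fold lower. Slit2 was 52.9-fold lower, Epha3 at least 28.1-fold lower and Sema3a at least 15.5-fold lower. Against these, Epha2 was 5.27-fold higher, Ntn1 at least 5.27-fold higher and Epha1 4.06-fold higher. The median over the probe sets of Epha1 turned the direction (−0.495, limma adjusted p = 0.404). Among 34 nuclear receptors, 8 rose and 15 fell. Besides Esrrb and Nr0b1, Nr5a2, an activator of Pou5f1, was at least 24.2-fold higher, and Nr6a1 at least 14.3-fold higher. The mesenchymal receptors Nr2f2 and Nr2f1 were at least 10.3-fold lower and at least 7.88-fold lower. Of the retinoid carriers and enzymes, Crabp2, Crabp1 and Dhrs3 were 11.1-fold lower, 7.13-fold lower and at least 8.5-fold lower.

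Cytokine genes were lower in CL11. Of 40 ligands and receptors, 23 fell and 2 rose (median −1.61), and no ligand of 22 was called higher. Only 1 member rose without CL11 replicate 2, without MEF replicate 3 or in a fit of the 6 arrays alone. Cxcl12, which attracts blood and germ cells, read 7.28, 10.78 and 10.57 on the CL11 arrays and 18.73, 18.70 and 18.74 on the MEF arrays and was at least 203-fold lower. Csf1, the macrophage growth factor, was 46.3-fold lower, and Il6 at least 7.25-fold lower. Tnfrsf11b, a decoy receptor that protects bone, was at least 46.4-fold lower, and the oncostatin receptor Osmr at least 55.1-fold lower. In the LIF pathway, which ES cells use in culture, the receptor gene Lifr read 16.06, 16.12 and 16.06 on the CL11 arrays and 13.58, 13.68 and 14.08 on the MEF arrays and was 4.92-fold higher. Its partner Il6st was 4.83-fold lower, and the ligand gene Lif 2.91-fold lower, which was not called as the median of its probe sets (−0.63, adjusted p = 0.273). Macrophage and blood markers moved with these genes. Of 15 such markers, 12 lay above background in MEF and 3 in CL11, and their summed signal was 112541 to 117730 in MEF and 85079 to 95841 in CL11. The complement genes C1qa, C1qb and C1qc and the granule gene Lyz2 were called lower and lay below background in CL11, while Laptm5 (9.05-fold) and Cd68 (4.86-fold) were higher in CL11. The Laptm5 probe set not shared between transcripts turned the direction (−1.26, limma adjusted p = 0.261). The globin genes Hba-x, Hbb-bh1 and Hbb-y lay below background in both. The part of these cells in the cytokine result was not tested.

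Of 30 innate sensing and antigen presentation genes, 15 fell and 4 rose (median −0.79), with 2 higher as the median of the probe sets. When probe sets shared between transcripts were left out, 8 were lower. Irf7, Irf9, Rela and Tap2, all called lower, have no other probe set and dropped out of that count. B2m, the light chain of class I antigen-presenting molecules, read 14.27, 13.67 and 14.07 on the CL11 arrays and 19.05, 18.99 and 19.12 on the MEF arrays and was 33.1-fold lower. The heavy chains H2-K1 and H2-D1, which share sequence with other class I genes, were 3.72-fold lower and 3.37-fold lower. Of the 17 transcription factor and antigen presentation genes, 9 fell and 2 rose. Psmb9 was among the latter (at least 2.92-fold higher), and Tap1 and Psmb10 were not called. The sensor genes Sting1, Ifih1 and Eif2ak2 were 4.81-fold lower, at least 2.77-fold lower and 2.77-fold lower. Nod1 was 2.77-fold higher. Of 13 complement genes 6 fell (46.2%) and 4 rose (30.8%), against 23.3% and 29.7% over all genes, and 2 rose without scaling or without shared probe sets. Ptx3 was at least 13.3-fold lower and Clu, clusterin, 4.55-fold higher.

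Surface antigens by which such cells are sorted differed by member. Of 32, 18 fell (56.2%) and 10 rose (31.2%), against 23.3% and 29.7% over all genes. Cd44 read 10.02, 10.69 and 9.99 on the CL11 arrays and 18.33, 18.42 and 18.16 on the MEF arrays and was at least 151-fold lower. Thy1 was 101-fold lower and Cd248 at least 65.5-fold lower. Higher were Podxl, at least 16.4-fold, Alpl, the alkaline phosphatase used to stain ES colonies, at least 21.4-fold, Icam1, at least 19.2-fold, and Pecam1, at least 8.18-fold. Cd9 read 17.63, 17.60 and 17.59 on the CL11 arrays and 15.05, 15.14 and 14.72 on the MEF arrays and was 6.22-fold higher. Cd24a, although common on early embryonic cells, was 3.77-fold lower.

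Lysosomal genes were moderately lower. Of 44, 27 fell and 9 rose (median −0.83), or 32 and 5 without scaling. Ctsk, a collagen-degrading protease, read 8.04, 8.37 and 7.97 on the CL11 arrays and 15.55, 15.36 and 15.54 on the MEF arrays and was at least 21.4-fold lower, and Lamp2, a membrane protein, was 10.8-fold lower. Manba, a mannosidase, went the other way and was 10.5-fold higher. The lysosome regulators Mitf, Tfe3 and Tfeb were 3.36-fold higher, 2.38-fold higher and 2.08-fold higher. Of 32 apoptosis genes, 9 rose (28.1%) and 14 fell (43.8%), against 29.7% and 23.3% over all genes (median 0.02). Casp8, which starts death receptor signalling, was 9.36-fold lower, the death receptor Fas at least 4.98-fold lower and Casp12 at least 13.6-fold lower. Bid, which links that pathway to mitochondria, was 4.59-fold higher, Mcl1, a survival protein, 2.61-fold higher, and Bcl2 at least 3.05-fold lower.

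**Figure D5:**
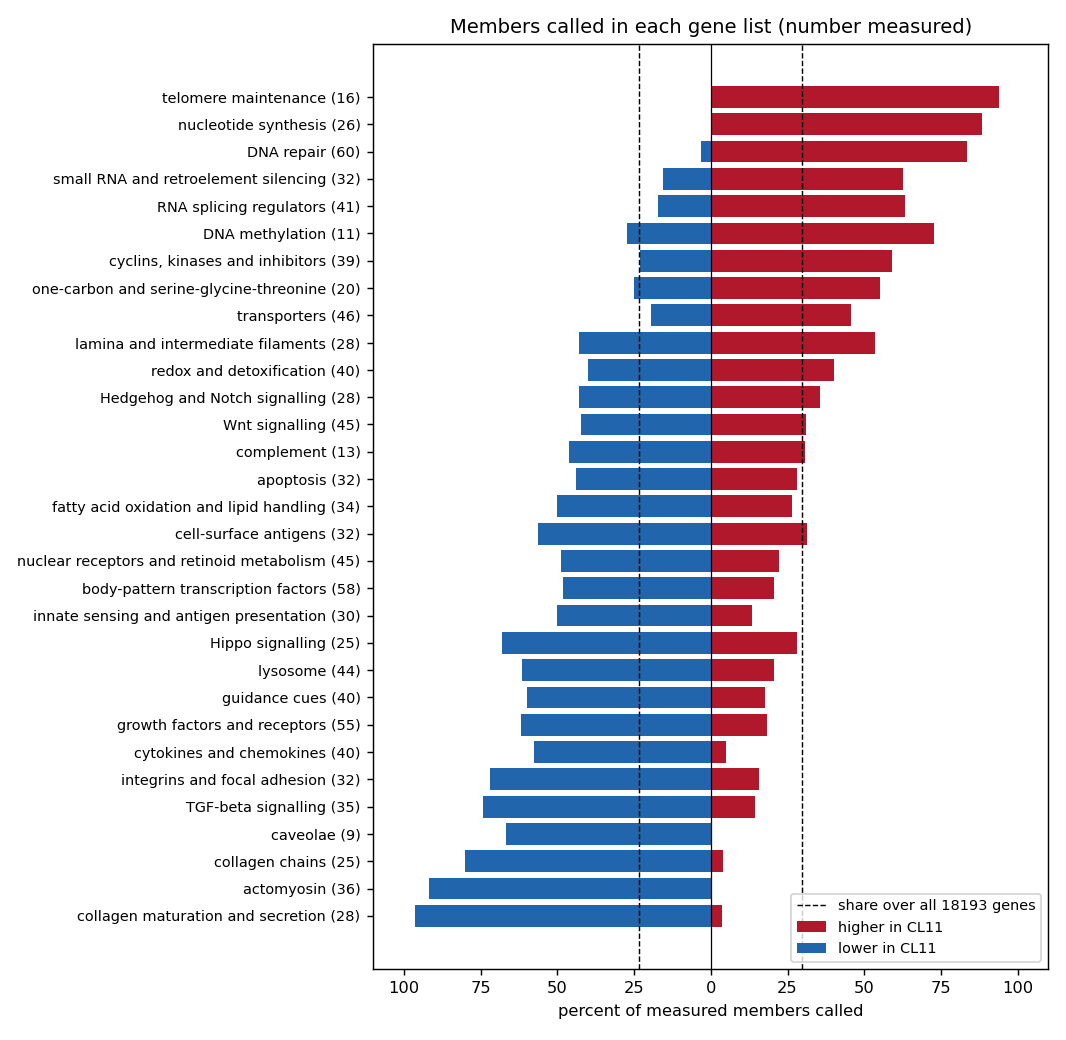
Share of the measured members of 31 gene lists called higher in CL11 (red, to the right) and lower (blue, to the left), with the number measured in parentheses. Dashed lines give the shares over all 18193 genes, 29.7% higher and 23.3% lower, and the lists run from telomere maintenance (93.8% higher) to collagen maturation and secretion (96.4% lower).

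Most called genes with several probe sets were read the same way by all of them. Of 4815 changed genes with more than 1 probe set above background, 4095 (85%) had every such probe set on the same side.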

How the data were processed

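RNA of 15 samples in 5 groups of 3 was read on Affymetrix mouse arrays. The submitters' processing notes name Affymetrix Expression Console and MAS5 for the deposited intensity values, and versions are not given in the sources used here. Of 45101 probe sets, 64 controls were left out. Each array was scaled to a common 2% trimmed mean, 16 was added and log2 taken. A mean per group was fitted to all 15 arrays with limma 3.58.1 in R 4.3.3 (lmFit, eBayes with a trend), and the CL11 minus MEF contrast was adjusted by Benjamini-Hochberg over 45037 probe sets at 0.05. A gene's value is that of its single-gene probe set with the highest mean over all arrays. The fit was tested on simulated data. The number of arrays limits the precision.

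Named genes are the 15 largest rises and 15 largest falls by bounded fold, members of the 40 gene lists, and genes within 8 RefSeq neighbours of Nanog. The members and lists were chosen with earlier results of these data known. Within a list, the genes described were picked for their role or the size of their difference. List members not named among the probe sets used here have no value. Replicate numbers were not used to pair the samples in the main fit. Alternatives were other scalings, pseudocounts, filters, probe set rules, a replicate block and leaving out each array.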

Additional observations from a re-analysis of the deposited data

How the results depend on the processing

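The counts of changed probe sets and genes stayed within 1.5 times under every alternative run, except that 6461 probe sets were higher without scaling. No scaling moved the median of all genes to −0.345, and median scaling to 0.288, against 0.065 in the report. Leaving out each array in turn gave 18087 to 18531 changed probe sets, 9303 to 9664 higher and 8537 to 9228 lower, and 9084 to 9234 changed genes, 5108 to 5252 higher and 3911 to 4126 lower. The labels number the replicates alike in both groups. Deviations of same-numbered arrays correlated at −0.067, 0.048 and −0.101, and those of other array pairs at −0.095 to 0.145. These few values cannot tell whether same-numbered samples were handled together, and the main fit used no pairing. With a replicate block, 9583 genes and 19426 probe sets changed.

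Of 356 named genes with a direction, 16 lost their call in at least 1 of 18 alternatives and 5 turned sign. Tcf21 gave 0.11 under quantile normalization, 0.16 under median scaling, and 0.05, 0.13 and 0.12 without CL11 replicate 1, MEF replicate 2 and MEF replicate 3, with a lowest value of −0.466 without MEF replicate 1. Tpm3 gave 0.19 under median scaling. Srf gave −0.10 without scaling and −0.44 as the median of its probe sets, Epha1 −0.495 as that median, and Laptm5 −1.26 on probe sets with a plain suffix. Taking that median moved 100 of the named differences by over 1.5-fold. Another 26 named genes, below background in both groups, have no direction. Of 1440 list counts 41 moved by over 1.5 times. The cause was not tested. Below background, arrays give only a bound.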

Other observations

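CL11 arrays also read genes better known from other tissues. Of 12 neural markers, 6 were higher (50%) and 2 lower (16.7%), against 29.7% and 23.3% over all genes. Of these markers, 8 lay above background in CL11 against 4 in MEF. Stmn2, which binds tubulin in growing neurons, read 17.80, 17.81 and 17.76 on the CL11 arrays and 13.86, 13.96 and 14.07 on the MEF arrays and was 14.2-fold higher. Neurod1 and Pax6, factors of neuron formation, were at least 7.88-fold higher and at least 2.36-fold higher, and Sox1, a factor of the early neural plate, at least 3.33-fold higher, while Map2 was at least 2.94-fold lower. Dcx and Snap25, which mark neurons, lay below background in both groups. Of 12 endothelial markers, 7 were higher (58.3%) and 1 lower (8.3%). Plvap was at least 5.63-fold higher and Esam at least 4.27-fold higher, while Emcn, the 1 called lower, was at least 7.58-fold lower. Cdh5 and Tie1, defining genes of that cell type, lay below background in both groups.

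Of 12 skeletal muscle markers, 3 were higher (25%) and 4 lower (33.3%), against 29.7% and 23.3% over all genes. Mylpf, a myosin light chain gene of fast muscle, read 17.22, 17.45 and 17.28 on the CL11 arrays and 11.37, 10.85 and 11.25 on the MEF arrays and was 71.6-fold higher. Acta1, skeletal actin, moved the other way and was 27.7-fold lower, and Myod1, Myog and Myf5 lay below background in both groups. Of 9 keratinocyte markers, 2 were higher (22.2%, below the share over all genes) and none lower. Only 1 was higher without scaling, without a trend, as the median of the probe sets, or without CL11 replicate 2, MEF replicate 1 or MEF replicate 3. Sfn, an epithelial cell cycle regulator, was at least 22.5-fold higher, while Krt5, Krt14 and Trp63 lay below background in both groups. Of 10 cartilage and adipose markers, 1 was higher (10%, none without scaling) and 4 lower (40%), among the lower Sox9 (at least 1.89-fold) and Cebpa (3.68-fold).

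A further 9160 probe sets had no gene name here, and 2090 of them changed by the same call rule (22.8%, against 43.4% of all probe sets).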
